A study of Capra hircus with 6 samples.

Results

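The 10 cell-surface markers by which stromal cells and fat precursors of muscle are recognised were followed in RNA-seq of goat intramuscular preadipocytes. They are the PDGF receptors PDGFRA and PDGFRB, the stromal cell markers THY1, ENG, NT5E and CD44, the preadipocyte factor DLK1, the progenitor and vascular marker CD34, and MCAM and CSPG4, which are markers of cells around small vessels. The markers were chosen by gene name and not by their own values, but with earlier results of these data known. Of the 10 markers, 9 have a row under that name among the 27271 genes of the deposited files. CD34 has no row under its symbol and was not analysed here. The cells came from the longissimus dorsi muscle of 3-day-old Jianzhou goats, were kept for their early adherence to plastic, and were used at the third passage. In the NC groups (n = 3) wild-type cells received a negative control siRNA, and in the Si-LIPG groups (n = 3) the cells received an siRNA against LIPG, which encodes endothelial lipase. Cells of both groups were then induced with 50 μmol/L oleic acid and collected after 48 h. The labels do not say whether the libraries of a group came from separate animals or only from separate wells, so the p values measure the spread between these libraries, which may be technical.

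Fibro-adipogenic precursors are resident stromal cells of muscle that can give rise to fat cells and to collagen-producing fibroblasts. PDGFRA is the receptor by which they are usually sorted, and its relative PDGFRB is carried by many fibroblasts and by mural cells, the pericytes and smooth muscle cells of vessel walls. THY1 (CD90), ENG (CD105, a co-receptor of TGF-beta and BMP signaling) and NT5E (CD73, the ectoenzyme that makes adenosine from AMP) are the markers by which cultured mesenchymal stromal cells are defined, and CD44 is the receptor for the matrix polymer hyaluronan. DLK1, also called preadipocyte factor, is a Notch-like protein that is known to hold back the maturation of fat cells.

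Few reads were counted on genes. The libraries held between 36451898 and 52638817 reads, of which 524776 to 703680 in the NC libraries and 864882 to 1051230 in the Si-LIPG libraries were counted on genes. Between 91.6% and 93.7% of the reads were assigned to no feature. Reads on genes made up 1.31% ± 0.279 (SD, n = 3) of an NC library and 2.44% ± 0.566 (SD, n = 3) of a Si-LIPG library, without overlap (p = 0.1 by a two-sided exact permutation test, which with 3 against 3 libraries cannot go lower). A count of 0 allows up to 3 counts, which corresponds to a CPM between 2.85 and 5.72, and this limit covers counting error only. The silenced gene LIPG (ENSCHIG00000015994) had 0, 2 and 0 counts in NC 1 to 3, against 0, 2 and 2 in Si-LIPG 1 to 3, so that the knockdown could not be checked. The sources used here leave a doubt over which way the groups were set against each other. Every direction below is therefore that of the libraries as labelled, and all signs would turn if the labels of NC and Si-LIPG were exchanged. The mitochondrial gene ND6, which is transcribed from the strand opposite to its neighbour ND5, had an FPKM between 14.8 and 44.2 times that of ND5. The library protocol keeps the strand of the RNA, and the strand setting of the counting is not given in the sources used here. Whether the marker counts are reads of the sense strand was not tested, and every level below is a level of counted reads.

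A marker was taken as detected when its count was over 3 in all 6 libraries. By this rule 7 of the 9 markers with a row were detected, PDGFRA, PDGFRB, THY1, ENG, NT5E, CD44 and CSPG4, against 17.3% of all genes in the files. The same number was detected with at least 1 count, with at least 10 counts or with an FPKM of at least 1 in every library. Levels of different genes were compared as FPKM, which corrects for gene length and for the reads counted on genes.

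The PDGF receptors, which pass the growth signal of platelet-derived growth factors to stromal cells, were counted in every library. PDGFRA (ENSCHIG00000005194) had 24, 60 and 94 counts in NC 1 to 3, against 124, 181 and 178 in Si-LIPG 1 to 3. Its FPKM was 20.5 ± 9.79 (SD, n = 3) with NC and 36.6 ± 4.57 (SD, n = 3) with Si-LIPG. NC 1 was the lowest library, and no NC library reached the Si-LIPG libraries. PDGFRB (ENSCHIG00000024821) was counted 28, 57 and 49 times in the NC libraries, against 84, 97 and 162 with Si-LIPG. Its FPKM was 16.97 ± 4.87 (SD, n = 3) and 27.3 ± 7.59 (SD, n = 3), again without overlap, although NC 2 at 22.1 lay just under Si-LIPG 1 at 22.7. The count ratio of PDGFRA to PDGFRB was between 0.857 and 1.92 in the NC libraries and between 1.10 and 1.87 in the Si-LIPG libraries, so neither receptor stood clearly above the other.

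Of the markers that define cultured stromal cells, NT5E was the most abundant by FPKM. NT5E (ENSCHIG00000010651) had an FPKM of 135, 239 and 251 in NC 1 to 3, against 288, 397 and 296 in Si-LIPG 1 to 3. All libraries labelled Si-LIPG lay above all those labelled NC, and the mean FPKM of NT5E over the 6 libraries was higher than that of 99.0% of all genes in the files. ENG (ENSCHIG00000026868) had an FPKM of 91.4, 72.5 and 75.2 in the NC libraries, against 67.3, 56.5 and 51.5 with Si-LIPG. It was the only detected marker whose FPKM was lower in every Si-LIPG library than in every NC library. Its raw count hardly moved, with 310, 282 and 342 in the NC libraries, against 376, 359 and 350 with Si-LIPG. NT5E (gene length 1725 bp, against 6464 bp for ENG) had fewer counts than ENG in every NC library and more in every Si-LIPG library.

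THY1, a small glycoprotein anchored in the membrane by a lipid, and CD44 were detected in both groups with overlapping levels. THY1 (ENSCHIG00000024336) had an FPKM of 36.4, 41.5 and 60.6 in the NC libraries, against 62.1, 36.7 and 58.1 with Si-LIPG. CD44 (ENSCHIG00000021491) had an FPKM of 21.4, 51.6 and 43.95 in the NC libraries, against 43.8, 30.2 and 32.9 with Si-LIPG. For CD44 the lowest and the highest library were both NC libraries.

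DLK1 (ENSCHIG00000018116) was listed at a count of 0 in all 6 libraries. Among the reads counted on genes a count of 0 allows up to 3 per library, so that the preadipocyte factor was not detectable there, and whether its reads are among those assigned to no feature was not tested. MCAM (ENSCHIG00000013559), an adhesion protein of endothelial cells and pericytes, had 0, 8 and 0 counts in the NC libraries, against 2, 0 and 0 with Si-LIPG. It was over the limit in NC 2 alone (8 counts, exact 95% Poisson interval 3.45 to 15.8). CSPG4 (ENSCHIG00000022435), the proteoglycan NG2 of pericytes and many progenitor cells, was counted 24, 54 and 55 times in the NC libraries, against 101, 187 and 164 with Si-LIPG. Its FPKM was 9.12 ± 2.92 (SD, n = 3) with NC and 19.8 ± 4.71 (SD, n = 3) with Si-LIPG, a ratio of 2.17, and the groups did not overlap.

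**Figure D1:**
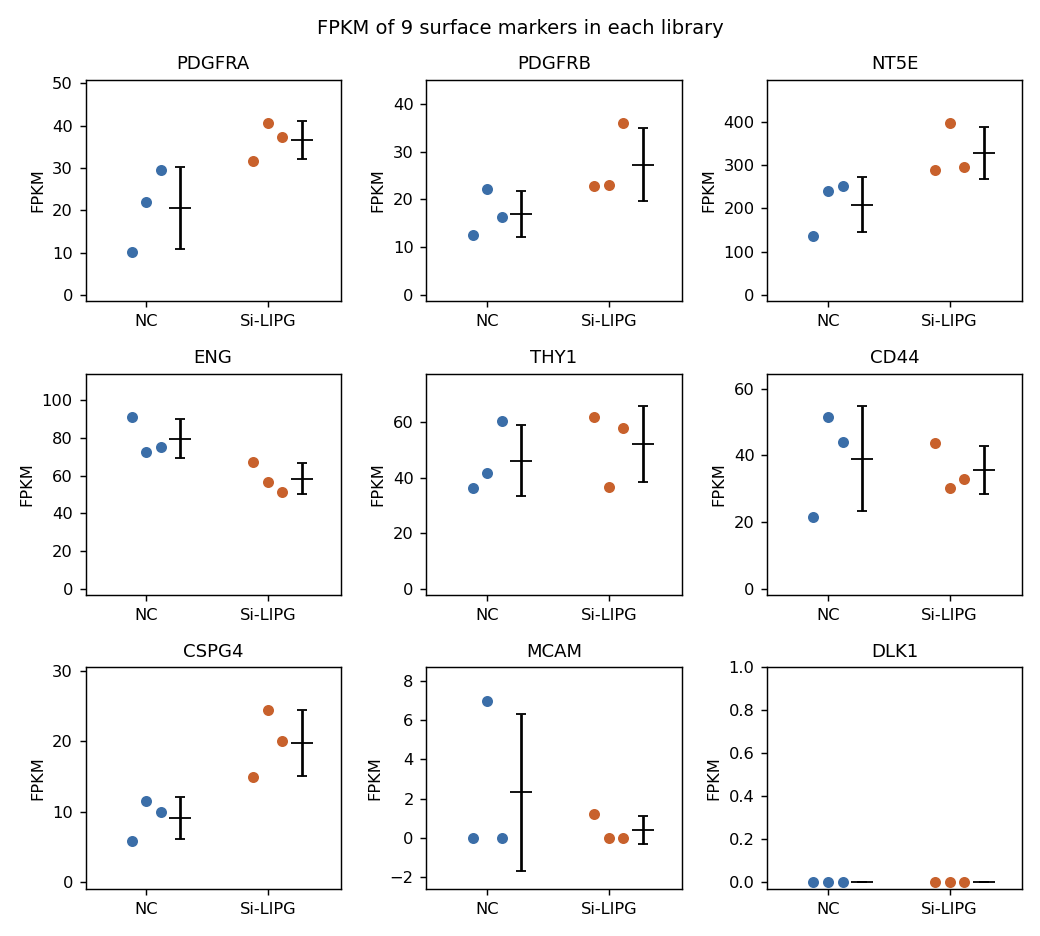
FPKM (y axis, linear) of the 9 markers in the 3 NC libraries (blue) and the 3 Si-LIPG libraries (orange), with the mean and SD of each group in black. NT5E reaches 397, ENG is lower in the Si-LIPG libraries, DLK1 is at 0 in all libraries and MCAM is above 2 in NC 2 alone.

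In the NC groups the order by mean FPKM was NT5E (208), ENG (79.7), THY1 (46.2), CD44 (39.0), PDGFRA (20.5), PDGFRB (16.97), CSPG4 (9.12) and MCAM (2.31). The libraries of NT5E lay above those of ENG, those of ENG above those of THY1, and those of PDGFRB above those of CSPG4, while the other neighbours in this order overlapped. In the Si-LIPG groups the order was NT5E (327), ENG (58.4), THY1 (52.3), PDGFRA (36.6), CD44 (35.7), PDGFRB (27.3), CSPG4 (19.8) and MCAM (0.403). There NT5E lay apart from ENG and CSPG4 apart from MCAM, and the markers from ENG to CSPG4 formed a chain in which each overlapped the next.

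To ask whether silencing of LIPG went with a change of the markers, the 6574 genes with enough counts were tested with edgeR (quasi-likelihood test) after TMM normalization, which sets the libraries on a scale where most genes do not change. Of the 7 markers tested, 0 had a Benjamini-Hochberg adjusted p under 0.05 from edgeR and 1 had an unadjusted p under 0.05, while 6.50% of all genes tested were called, 0.958% higher and 5.54% lower in Si-LIPG. ENG alone met the criterion of the study, which asks for an unadjusted p below 0.05 together with a fold change above 1.5. This criterion was met by 20.7% of all genes tested, 7.83% in the higher and 12.9% in the lower direction, so that 1 marker of 7 is close to the background. With library sizes alone, and with limma on log2(FPKM + 0.1), CSPG4 met it in place of ENG, as did 1948 and 1671 of 6574 genes.

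ENG had a TMM-normalized CPM of 972, 491 and 521 in NC 1 to 3, against 410, 283 and 247 in Si-LIPG 1 to 3. NC 1 was far above the others, and the groups did not overlap. The log2 fold change (Si-LIPG over NC) was -1.07 (standard error 0.36, 95% interval -1.83 to -0.32), with an unadjusted p of 0.00859 and an adjusted p of 0.0842 from edgeR, where ENG ranked 670 of all tested genes by p. DESeq2 gave an adjusted p of 0.0322 for ENG, and over all alternatives the adjusted p from edgeR, DESeq2 or limma ranged from 1e-04 to 0.414. Without NC 1 the log2 fold change of ENG was -0.71 (edgeR adjusted p = 0.221). Without Si-LIPG 2 or Si-LIPG 3 it no longer met the criterion, and without Si-LIPG 1 it was called, with a log2 fold change of -1.34 (edgeR adjusted p = 0.0343). A fit with the replicate number as a block, a pairing that the libraries left unsettled, also called it (edgeR adjusted p = 1e-04).

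The other markers had smaller differences on this scale. CSPG4 differed by 0.55 on the log2 scale (standard error 0.33, edgeR adjusted p = 0.368), with 75.2, 94.0 and 83.8 CPM in the NC libraries and 110, 147 and 116 CPM in the Si-LIPG libraries. CSPG4 and ENG were the markers whose groups did not overlap in TMM-normalized CPM, 2 of 7 against 28.7% of all genes tested, 15.2% higher and 13.4% lower. CD44 had a log2 fold change of -0.62 (95% interval -1.33 to 0.0871) and THY1 of -0.38 (95% interval -1.21 to 0.46). For PDGFRA the value was 0.30 (95% interval -0.41 to 1.013), for PDGFRB 0.11 (95% interval -0.61 to 0.84) and for NT5E 0.11 (95% interval -0.53 to 0.74). These intervals reach beyond a change by a factor of 1.5 in at least one direction, so that changes of that size lie within them. MCAM had too few counts for the fit (two-sided exact permutation test of log2 CPM, p = 1).

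The direction of ENG, CD44 and THY1 depended on the scaling. Another library size shifts all genes by nearly the same amount, so the distances from the median of all genes are given for description, and their likeness across scales is no sign of stability. The median of the log2 fold changes over all tested genes was 0.16 with TMM, 0.71 with the reads on genes as library size and 1.59 with all reads as library size. Relative to that median, ENG lay at -1.23, -1.16 and -1.15 on these 3 scales. CD44 lay at -0.78, -0.85 and -0.94 and THY1 at -0.54, -0.54 and -0.59. NT5E stayed near the median, at -0.05, -0.06 and -0.09, as did PDGFRB at -0.05, -0.03 and -0.0044. PDGFRA lay above it at 0.14, 0.11 and 0.07, and CSPG4 at 0.39, 0.40 and 0.41. On the scale of all reads every Si-LIPG library was above every NC library for all 7 markers, as for 51.9% of all genes tested (1.17% were lower). NT5E and CSPG4 had an adjusted p under 0.05 there (0.0483 and 0.0457 from edgeR), as had 916 of 6614 genes tested. On that scale ENG had a log2 fold change of 0.44, the reverse of its sign after TMM normalization. In FPKM 5 of the 7 markers had groups that did not overlap, 4 higher and ENG lower, against 38.5% of all genes tested, 30.2% higher and 8.35% lower.

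**Figure D2:**
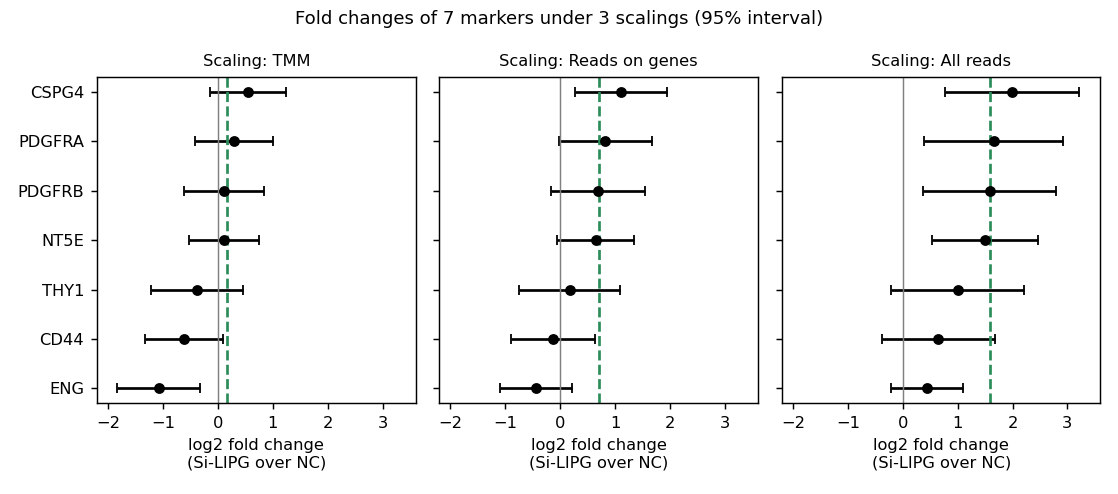
Log2 fold change (x axis, Si-LIPG over NC) of the 7 tested markers with 95% intervals after TMM normalization, with the reads on genes as library size, and with all reads as library size. The dashed green line is the median of all tested genes, which moves from 0.16 to 1.59, with ENG below it and NT5E and PDGFRB near it in each panel, as a common shift of all genes requires.

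Ratios of counts within a library do not depend on any scaling of libraries, and they were used, after the values of the markers had been seen, to compare the markers with each other. ENG was the reference with the least varied count, so a ratio to ENG largely follows the raw count of the other marker. The Si-LIPG libraries hold more reads on genes. For each count of ENG there were 0.0774, 0.213 and 0.275 counts of PDGFRA in NC 1 to 3, against 0.330, 0.504 and 0.509 in Si-LIPG 1 to 3. The ratio of PDGFRA to ENG was thus higher in every Si-LIPG library, by a factor of 2.65 between the geometric means. For CSPG4 the ratio to ENG was 0.0774, 0.191 and 0.161 in the NC libraries, against 0.269, 0.521 and 0.469 with Si-LIPG, a factor of 3.02. Without NC 1 the log2 difference fell from 1.41 to 0.86 for PDGFRA and from 1.59 to 1.20 for CSPG4.

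The same order of groups was seen for NT5E, whose ratio to ENG was 0.394, 0.879 and 0.892 in the NC libraries, against 1.14, 1.87 and 1.53 with Si-LIPG. PDGFRB had a ratio to ENG of 0.0903, 0.202 and 0.143 in the NC libraries, against 0.223, 0.270 and 0.463 with Si-LIPG. The ratios of THY1 and CD44 to ENG overlapped between the groups. Among all genes with over 3 counts in every library, 39.8% had a ratio to ENG that was higher in every Si-LIPG library, against 4 of these 6 markers. Of the 21 pairs of detected markers, 8 had ratios that did not overlap between the groups, against 28.6% of all pairs of such genes, and each had p = 0.1 in a two-sided exact permutation test, the smallest this design allows (0.263 after Benjamini-Hochberg adjustment over the 21 pairs). These were the 4 pairs with ENG, the pairs of CD44 with PDGFRA, NT5E and CSPG4, and the pair of CSPG4 with NT5E. The ratios of PDGFRB to NT5E were level, with a difference of the log2 means of 0.001.

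**Figure D3:**
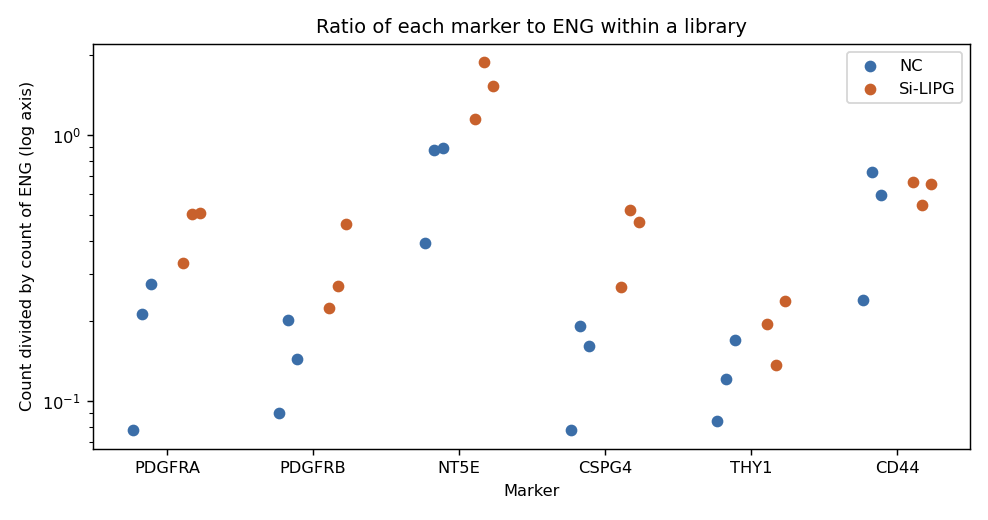
Count of 6 markers divided by the count of ENG in the same library (y axis, log scale), for the 3 NC libraries (blue) and the 3 Si-LIPG libraries (orange). The groups are apart for PDGFRA, PDGFRB, NT5E and CSPG4 and overlap for THY1 and CD44.

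Between the lowest and the highest library the count of ENG differed by a factor of 1.33, that of THY1 by 3.19, that of CD44 by 3.38, that of NT5E by 5.52, that of PDGFRB by 5.79, that of PDGFRA by 7.54 and that of CSPG4 by 7.79. The reads on genes differed by a factor of 2.003. FPGS, which encodes an enzyme of folate metabolism, lies within 1 kb of ENG in RefSeq's annotation of ARS1.2, a goat assembly, and CBL, which encodes a ubiquitin ligase, lies within 1 kb of MCAM. FPGS had 79, 60 and 72 counts in the NC libraries, against 59, 78 and 51 with Si-LIPG, so its raw counts overlapped. After TMM normalization its log2 fold change was -1.49 (adjusted p = 0.0452 from edgeR). Whether reads of these neighbours are part of the marker counts was not tested. For the other detected markers the annotation gives no gene within 1 kb.

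The tested genes whose log2 CPM over the 6 libraries was most like that of ENG were CAPN7 (Pearson r = 0.9995), the unnamed gene ENSCHIG00000000256 (r = 0.999) and POLG (r = 0.999). CAPN7 had a log2 fold change of -1.32 and POLG of -1.50, and 467 of 6573 genes had an r over 0.95 with ENG, whose CPM was highest in NC 1. For NT5E the most similar genes were FAM91A1 (r = 0.977), MRPL17 (r = 0.967) and PRR14 (r = 0.945), and 2 genes had an r over 0.95. Among the detected markers, ENG and CSPG4 went in opposite directions over the libraries (r = -0.88), as did THY1 and CSPG4 (r = -0.83), and PDGFRA went with NT5E (r = 0.68). These correlations describe 6 libraries that share the same normalization. In raw counts both ENG and CSPG4 were higher in every Si-LIPG library than in every NC library. Their opposite course is one of values scaled to the reads on genes, seen in FPKM as well as after TMM normalization.

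Genes that work with the markers were taken from lists by pathway. Of the ligands and signal carriers of the PDGF receptors, 14 of 17 were tested and 1 was called, with a median log2 fold change of 0.38 against 0.16 for all genes tested. That gene was RASA1, a brake on RAS that binds the activated receptor, whose FPKM was 85.0 ± 19.0 (SD, n = 3) with NC and 48.9 ± 3.03 (SD, n = 3) with Si-LIPG. Its log2 fold change was -1.46 (standard error 0.36, edgeR adjusted p = 0.0400), which was 0.15 on the scale of all reads. The ligand PDGFC, with 17, 42 and 35 counts in the NC libraries, against 58, 78 and 72 with Si-LIPG, was not called, and PDGFB was at 0 in every library.

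Of the TGF-beta and BMP receptors, ligands and SMADs that act with ENG, 14 of 18 were tested and 0 were called by edgeR, while 2 (TGFBR3 and SMAD4) met the study's criterion, both higher (median log2 fold change 0.42). The most counted were TGFBR2, the type II receptor, with an FPKM of 52.7 ± 12.1 (SD, n = 3) and 78.8 ± 11.9 (SD, n = 3), and TGFB3, one of the ligands, with 18, 28 and 23 counts in NC 1 to 3, against 55, 76 and 54 in Si-LIPG 1 to 3. The ligands GDF2 (BMP9) and BMP10, which bind ENG directly, were at 0 in all libraries. Of the genes of CD44 and hyaluronan 10 of 15 were tested, 1 was called and 4 met the criterion, all higher, with a median log2 fold change of 0.62. Of all genes tested 6.50% were called and 20.7% met the criterion, 7.83% in the higher direction. The called gene was CEMIP, which takes part in breaking down hyaluronan, with an FPKM of 57.9 ± 21.0 (SD, n = 3) with NC and 198 ± 17.5 (SD, n = 3) with Si-LIPG (log2 fold change 1.23, adjusted p = 0.0400 from edgeR, and 2.63 on the scale of all reads).

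Around NT5E, 5 of 12 genes of extracellular adenosine were tested and 1 was called. This was ADORA2B, an adenosine receptor, with an FPKM of 108 ± 22.3 (SD, n = 3) with NC and 49.7 ± 5.43 (SD, n = 3) with Si-LIPG (log2 fold change -1.76, adjusted p = 0.0396 from edgeR, and -0.17 on the scale of all reads). The other adenosine receptors ADORA1, ADORA2A and ADORA3 were at 0. Of the Notch genes listed with DLK1, 8 of 14 were tested, and NOTCH4 was called with a log2 fold change of -1.81 (adjusted p = 0.0400 from edgeR, and -0.27 on the scale of all reads). NOTCH2 had the highest count of that list, with 116, 342 and 294 in the NC libraries, against 677, 768 and 717 with Si-LIPG. DLK2, the relative of DLK1, was at 0.

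Other genes of stromal progenitors ranged from abundant to uncounted. Of 31 on the list 26 have a row, 15 were detected and 16 were tested, with a median log2 fold change of 0.38. PI16, LEPR, MME and CD24 were at 0 in every library. The collagen genes COL1A1 and COL1A2 had an FPKM of 1941 ± 705 (SD, n = 3) and 2778 ± 1083 (SD, n = 3) in the NC groups and of 3360 ± 122 (SD, n = 3) and 4941 ± 68.9 (SD, n = 3) with Si-LIPG. LUM, the matrix proteoglycan lumican, was the called gene, with 6, 14 and 26 counts in the NC libraries, against 68, 133 and 144 with Si-LIPG (log2 fold change 1.71, adjusted p = 0.0396 from edgeR). Over all 12 companion lists, 6 of 82 tested genes (7.32%) were called, 2 higher and 4 lower, against 6.50% of all genes. None of the 6 was called by edgeR without NC 1, without NC 2, without Si-LIPG 2 or without Si-LIPG 3, where their adjusted p rose to as much as 0.291.

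Markers of other cells were counted as well. With so few reads on genes, a count near 0 does not show that a gene is unexpressed, so these counts cannot settle the label. No endothelial marker was detected, 5 of 10 (CDH5, KDR, TEK, TIE1 and CLDN5) were at 0 in every library, the 2 most counted were PECAM1 (at most 6 counts) and FLT1 (at most 4), and the summed count of the list was at most 5 in an NC library and at most 15 in a Si-LIPG library. No mature adipocyte marker was detected in all 6 libraries, and their summed count was 11 to 48 in the NC libraries and 41 to 53 in the Si-LIPG libraries. CIDEA and CIDEC, proteins of the lipid droplet, led this list by mean count (13.7 and 6.5), with at most 24 and 11 counts. PPARG had a mean count of 6.33 and at most 14 counts, and LPL was at 0 in every library. Of the blood cell markers, CSF1R (6 to 14 counts) was detected, CD14 had 1 to 10 counts, and PTPRC, ITGAM, CD3E and CD79A were at 0 in every library.

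Part of the mural and myogenic markers were detected. Of 9 mural markers with a row, 4 were detected (ACTA2, DES, MYH11 and TAGLN), and DES is on the myogenic list as well. ACTA2, the smooth muscle actin also made by cultured fibroblasts, had an FPKM of 2184 ± 904 (SD, n = 3) with NC and 3318 ± 22.9 (SD, n = 3) with Si-LIPG, while the pericyte markers RGS5 and KCNJ8 were at 0. MYH11, a smooth muscle myosin, was called with a log2 fold change of -1.44 (adjusted p = 0.0485 from edgeR) and had 0.0860 on the scale of all reads. Of 9 myogenic markers with a row, 5 were detected (CDH15, DES, MYH3, MYOD1 and NCAM1). The others on that list, PAX7, MYF5, MYOG, ITGA7 and CKM, had no row or were not detected. Of the 5 tested by edgeR 0 were called and 0 had an unadjusted p under 0.05. The most counted were MYH3, an embryonic myosin, with 66 to 132 counts in the NC libraries and 177 to 250 with Si-LIPG, and NCAM1, an adhesion molecule, with 51 to 143 and 154 to 225. MYOD1, the master factor of muscle precursors, had 7, 10 and 14 counts in the NC libraries, against 28, 71 and 36 with Si-LIPG. The summed FPKM of the myogenic list was 64.8 to 100.5 in the NC libraries and 120 to 130.03 in the Si-LIPG libraries, and its part in the marker levels was not tested. In RNA of a whole culture, fewer cells of a type and less RNA per cell cannot be told apart.

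**Figure D4:**
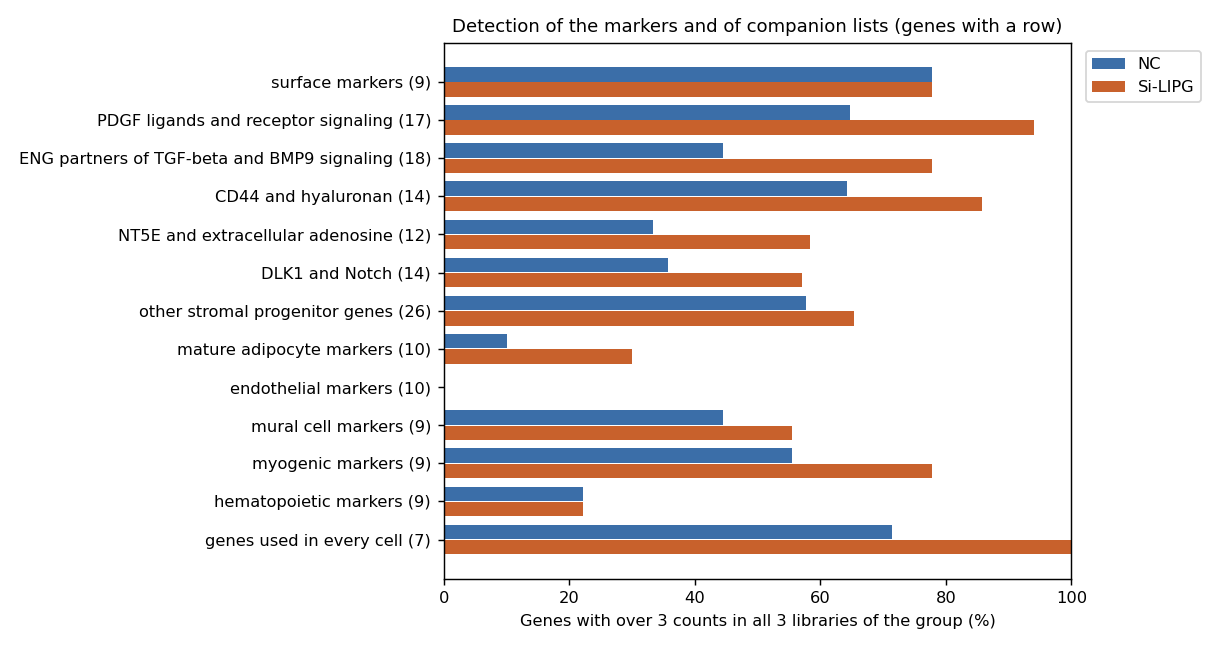
Share of the genes with a row (x axis, %) that had over 3 counts in all 3 libraries of a group, for the surface markers and the 12 companion lists, with the number of genes with a row in parentheses. Of the surface markers 7 of 9 are detected in both groups, no endothelial marker is detected in either, and 10 of the 12 companion lists have more genes over the limit in the Si-LIPG libraries, which hold more reads on genes.

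The genes used in every cell give the scale for these values. Of the 7 with a row, 5 were detected in the NC groups and all 7 in the Si-LIPG groups, with EEF1A1, a translation factor, at an FPKM of 1995 ± 833 (SD, n = 3) and 4183 ± 1076 (SD, n = 3). ACTB, cytoskeletal actin, had an FPKM of 431 ± 143 (SD, n = 3) and 579 ± 31.1 (SD, n = 3). In both groups the mean level of NT5E was below that of ACTB, and ENG, the next marker, was lower again.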

How the data were processed

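The 6 RNA-seq libraries were grouped by their titles. The authors deposited read counts for 27271 genes per library with 5 further rows for reads on no gene, and FPKM values of the same genes. The submitters' processing notes name fastp, HISAT2, SAMtools and HTSeq; versions, the genome build and the strand setting are not given in the sources used here. FPKM values and counts gave the same gene length in all libraries within 1% for the 13009 genes checked. The rows that name no gene entered neither library sizes nor tests, which left 0.997% to 2.88% of the reads, except where scaling to all reads is named.

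Markers and lists were chosen with earlier results of these data known. Counts were tested on all genes kept by filterByExpr (6574) with edgeR 4.0.16 in R 4.3.3 (quasi-likelihood test, TMM, no covariates, standard error from the F statistic), and adjusted p values are Benjamini-Hochberg values over the tested genes. Called means an adjusted p under 0.05. DESeq2 1.42.0 and limma 3.58.1 on log2(FPKM + 1) and log2(FPKM + 0.1) were alternatives, as were other library sizes, other filters, a block for the replicate number, and leaving out each library. Log2 CPM used a prior count of 2. The procedures were tested on simulated data. Replicates were no copies of each other (chi-square over its degrees of freedom at least 4.21).

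Named were all markers, the called genes of each list or otherwise up to 2 with the highest mean count, the 3 genes most like NT5E and ENG, and genes within 1 kb of a marker in RefSeq ARS1.2, where all 10 markers were found by symbol. Genes at 0, PDGFC, TGFBR3, SMAD4, NOTCH2, ACTA2, TAGLN, PPARG, MYOD1 and COL1A1 with COL1A2 were named after their values were seen. No sequences were used here.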

Additional observations from a re-analysis of the deposited data

How the results depend on the processing

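The 7 markers were also detected with at least 10 counts and with an FPKM of at least 1 in every library. The number stayed at 7 with at least 1 count and without any 1 library. Neither of these 2 settings can lower it, so they do not test its stability. Markers called by edgeR numbered 0, with 1 at an unadjusted p under 0.05, and the number was 2 when scaled to all reads, 1 with DESeq2, 1 with the replicate block, and between 0 and 1 when each library was left out. At the study's criterion the number of markers went from 1 to 4 when scaled to all reads, where 3101 of 6614 genes tested met it. It was 2 with at least 10 counts in every library (1066 of 2757 genes) and 2 with the replicate block (1550 of 6574 genes). With limma on log2(FPKM + 1) it was 0 (1912 of 6574 genes). Without 1 library it was 0 to 2, where 871 to 1692 genes met the criterion. Of all 6574 tested genes 427 were called, and 100 with library sizes alone. The number was 916 of 6614 when scaled to all reads, 595 of 14848 with DESeq2 and 714 of 2757 with at least 10 counts. It was 925 of 6574 with the replicate block and 0 with limma on log2(FPKM + 1) or log2(FPKM + 0.1). Without 1 library it was 0 to 648, with 0 without NC 1, NC 2, Si-LIPG 2 or Si-LIPG 3. Companion genes called were 6, and 26 when scaled to all reads, 10 with at least 10 counts, 15 with the replicate block, 0 with limma at either pseudocount, and 0 to 6 without 1 library.

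The log2 fold change changed sign for THY1 with library sizes alone (0.17), all reads (1.0004), limma on log2(FPKM + 1) (0.17) and log2(FPKM + 0.1) (0.18), for ENG (0.44) and CD44 (0.65) with all reads, and for PDGFRB without Si-LIPG replicate 3 (-0.0324, with 0.25 as the highest value without 1 library). Other settings kept the sign of each tested marker.

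Whether the replicate numbers pair the libraries stayed unsettled. Same-numbered libraries had correlations of 0.21, 0.0639 and 0.105. NC 1 was most like Si-LIPG 1 and NC 3 most like Si-LIPG 3. NC 2 was slightly more like Si-LIPG 3 (0.0890) than like Si-LIPG 2 (0.0639). With the block the adjusted p of ENG was 1e-04. Pairs of markers without overlap numbered 8, and 9 to 12 without 1 library. Leaving out a library can only keep or raise this number, so the higher numbers are no sign of stability. The share of all gene pairs without 1 library is not given here. The ratio of the shares of reads on genes, 1.86, stayed within the spread. The reads on genes limit DLK1 and MCAM, which were too low for the main edgeR fit, and leave PDGFRA, PDGFRB, THY1 and CSPG4 with 24 to 28 counts in NC 1.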

Other observations

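The raw count of ENG was nearly the same in all libraries. Among 951 tested genes whose mean count reached 100, the median ratio of the highest to the lowest count was 4.72, and for 105 genes (11.04%), ENG among them, it was under 1.5. A steady count gives a lower normalized value in the Si-LIPG libraries by construction, since they hold more reads on genes and have higher TMM factors, so the direction of these genes after normalization is no separate result. RASA1 (216, 164 and 212 counts with NC, against 157, 180 and 213 with Si-LIPG) and MYH11 (1266, 1001 and 1154 against 1208, 932 and 983) had ratios of 1.38 and 1.36 between their highest and lowest counts. The limit of 1.5 was chosen after the values were seen, and the cause of the steady counts was not tested.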
